A study of Mus musculus with 18 samples.

Results

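The genes described here encode the machinery that docks, primes and fuses synaptic vesicles at nerve terminals, together with the proteins that take the fusion complex apart again. There were 46 such genes, taken from a fixed list of symbols and matched through Entrez Gene numbers to RefSeq symbols. All 46 were among the 27179 genes of the count table, and all 46 were among the 15863 genes that passed the filter on low counts. To determine whether their transcripts vary with oral glyphosate, RNA from a hemi-brain of each of 18 wild-type C57BL/6J mice was sequenced after ribosomal RNA removal, and reads were counted per gene. The mice were 4 months old at the start and were gavaged daily for 14 days. The 5 vehicle mice, 2 males and 3 females, received the pH-adjusted solution without glyphosate. Daily glyphosate was 125 mg/kg for 5 mice (3 males, 2 females). Another 4 mice (3 males, 1 female) received 250 mg/kg, and 500 mg/kg was given to 4 mice (2 males, 2 females). Every mouse was perfused about 4 h after its last gavage. The mice were housed in groups by sex and dose, so that cage and dose cannot be told apart.

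In a resting terminal, synapsins hold vesicles in a reserve, Rab3 and RIM proteins bring them to the active zone, and the Unc13 family primes them. The vesicle SNARE synaptobrevin then zippers with syntaxin and SNAP-25 on the plasma membrane, while complexin clamps the partly assembled complex until calcium binds a synaptotagmin and triggers fusion. Afterwards the ATPase Nsf and its SNAP adaptors separate the SNARE proteins for another round. Several of these proteins exist as near-equivalent forms used in different brain regions: in rodents Syt1 and Vamp2 serve most forebrain synapses, and Syt2 and Vamp1 prevail in brainstem and spinal cord.

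The bases just before the start site are shown for the calcium sensors Syt1 and Syt2, a pair of forms whose ratio is given below. They are also shown for Vamp1 and Stx1a, the SNARE genes with the highest and the lowest slope on dose. Each run holds the 150 bases before the outermost annotated start, 5′ to 3′ on the gene's strand, from RefSeq on build GRCm38.p6. Capitals mark matches, on either strand, to the GC box motif spelled GGGCGG, to the CCAAT box, or to TGACG, the short form of the cyclic AMP response element.
Syt1, chr10:109010983-109011132, minus strand: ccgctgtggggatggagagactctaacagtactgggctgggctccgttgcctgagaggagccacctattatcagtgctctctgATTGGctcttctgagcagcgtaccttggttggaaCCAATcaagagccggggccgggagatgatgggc
Syt2, chr1:134646384-134646533, plus strand: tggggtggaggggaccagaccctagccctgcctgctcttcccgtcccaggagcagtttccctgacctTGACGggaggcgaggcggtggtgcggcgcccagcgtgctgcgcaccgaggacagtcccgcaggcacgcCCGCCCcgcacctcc
Vamp1, chr6:125215401-125215550, plus strand: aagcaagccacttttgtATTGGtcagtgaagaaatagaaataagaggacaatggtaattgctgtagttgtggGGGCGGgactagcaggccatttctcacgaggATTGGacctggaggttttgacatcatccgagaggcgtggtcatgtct
Stx1a, chr5:135023332-135023481, plus strand: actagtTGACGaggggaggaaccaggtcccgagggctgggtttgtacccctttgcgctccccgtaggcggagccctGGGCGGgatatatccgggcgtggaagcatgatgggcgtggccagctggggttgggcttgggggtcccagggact
G or C made up 72.7% of the Syt2 stretch, 66% of that of Stx1a, 58.0% of that of Syt1 and 47.3% of that of Vamp1. Over the full windows of 300 bases, of which 250 lie before a start, 35 members had 46 windows in the table. A GC box was present in 31 of these 46 windows, or 67.4%, and in 35.7% of all 32851 promoter windows. The median GC content was 62.5% in the member windows and 52.7% in all windows. A CCAAT box was found in 28.3% of member windows and 37.4% of all windows. The short element TGACG was found in 26.1% of member windows and 20.8% of all windows. The full element TGACGTCA, which contains it, was found in 4.35% of member windows, those of Napa and Syn1, and in 1.79% of all windows. E-boxes (CACGTG) were in 17.4% of member windows and 7.15% of all windows, and TATA boxes (TATAAA) in 6.52% of member windows and 13.6% of all windows. Windows of a member are not independent, since Sv2b had 4 and some of those of Syt6 overlapped. By gene, 27 of the 35 members had a GC box, 7 an E-box and 2 a TATA box. These matches describe letters in the windows, and none was related to the levels of the genes.

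Total counts lay between 3948096 and 11732885 per library, and levels are given as CPM, counts scaled to a common library size by TMM. Mouse G4, labelled 500 mg/kg, and mouse G9, labelled vehicle, stood apart from the other libraries: their median correlations of log CPM with the rest were 0.932 and 0.933, against 0.948 to 0.968 for the other 16 mice. Forebrain excitatory neuron markers were low in both, with the 15 genes summing to 835 CPM in G4 and 1108 CPM in G9, and 2489 to 6881 CPM elsewhere. The forebrain genes Fezf2, Dlx1 and Dlx2 had 0 counts in G9. Without G4, 7 of the 46 slopes on dose given below changed sign and another 19 moved by over 1.5 times, and values without it are given for these members. Without G79, 4 slopes changed sign and 17 moved by over 1.5 times. In tissue of mixed cells, fewer cells of a type cannot be told apart from less RNA per cell. Titles give each mouse a second number, 6 in all, whose meaning is not stated. Number 43 is on 3 mice at 125 mg/kg and 1 vehicle mouse, number 46 is on 2 mice at 500 mg/kg and 2 vehicle mice, and the others each fall within 1 dose. Litter and extraction are not named in the labels, and p-values reflect the spread between these animals.

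Release genes differed widely in level. Per kilobase of annotated exon, the highest in the vehicle mice was Cplx1 at 353 ± 36.1 RPKM (CPM divided by exon length in kilobases; SD, n = 5), followed by Cplx2 at 326 ± 128, the plasma membrane SNARE Snap25 at 242 ± 31.9 and Vamp2 at 221 ± 56.3 RPKM. Cplx1 and Cplx2 did not differ beyond their spread. Next stood Syt11, a synaptotagmin that does not bind calcium, at 201 ± 19.0 RPKM, the vesicle protein synaptophysin Syp at 189 ± 30.9 RPKM and Rab3a at 169 ± 21.8 RPKM, and these neighbours also overlapped. The fast calcium sensor Syt1 reached 147 ± 55.8 RPKM and its counterpart Syt2 14.0 ± 5.65 RPKM, and Vamp1 reached 35.2 ± 21.7 RPKM. At the bottom of the order were Syt17 at 2.25 ± 1.34, the broadly expressed SNARE Snap23 at 1.96 ± 0.571 and Unc13b at 0.924 ± 0.344 RPKM. The exon length of Unc13b, 22746 bases, covers every annotated exon, so its level per length is a low estimate.

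Variation between mice was as uneven as level. Cplx3, a complexin of retina and deep cortex, spanned 94.7-fold, with 0.386 CPM in G4, where it had 3 counts, and 36.5 CPM in the 125 mg/kg mouse G29. The syntaxin Stx1a, the target-membrane partner of synaptobrevin, spanned 20.2-fold, Syt2 10.9-fold and Vamp1 10.3-fold. At the other end, the SNARE-dissociating adaptor Napa spanned 1.47-fold, Vamp4 1.49-fold, Syp 1.57-fold and the ATPase Nsf 1.57-fold. G4 or G9 held the lowest value for Stx1a (10.9 to 219.7 CPM over all mice), Cplx3, Cplx2, Syt1, Bsn and Unc13b, and G4 held the highest value for Vamp1, Syt2, Sv2c, Cplx1 and Unc13c.

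**Figure D1:**
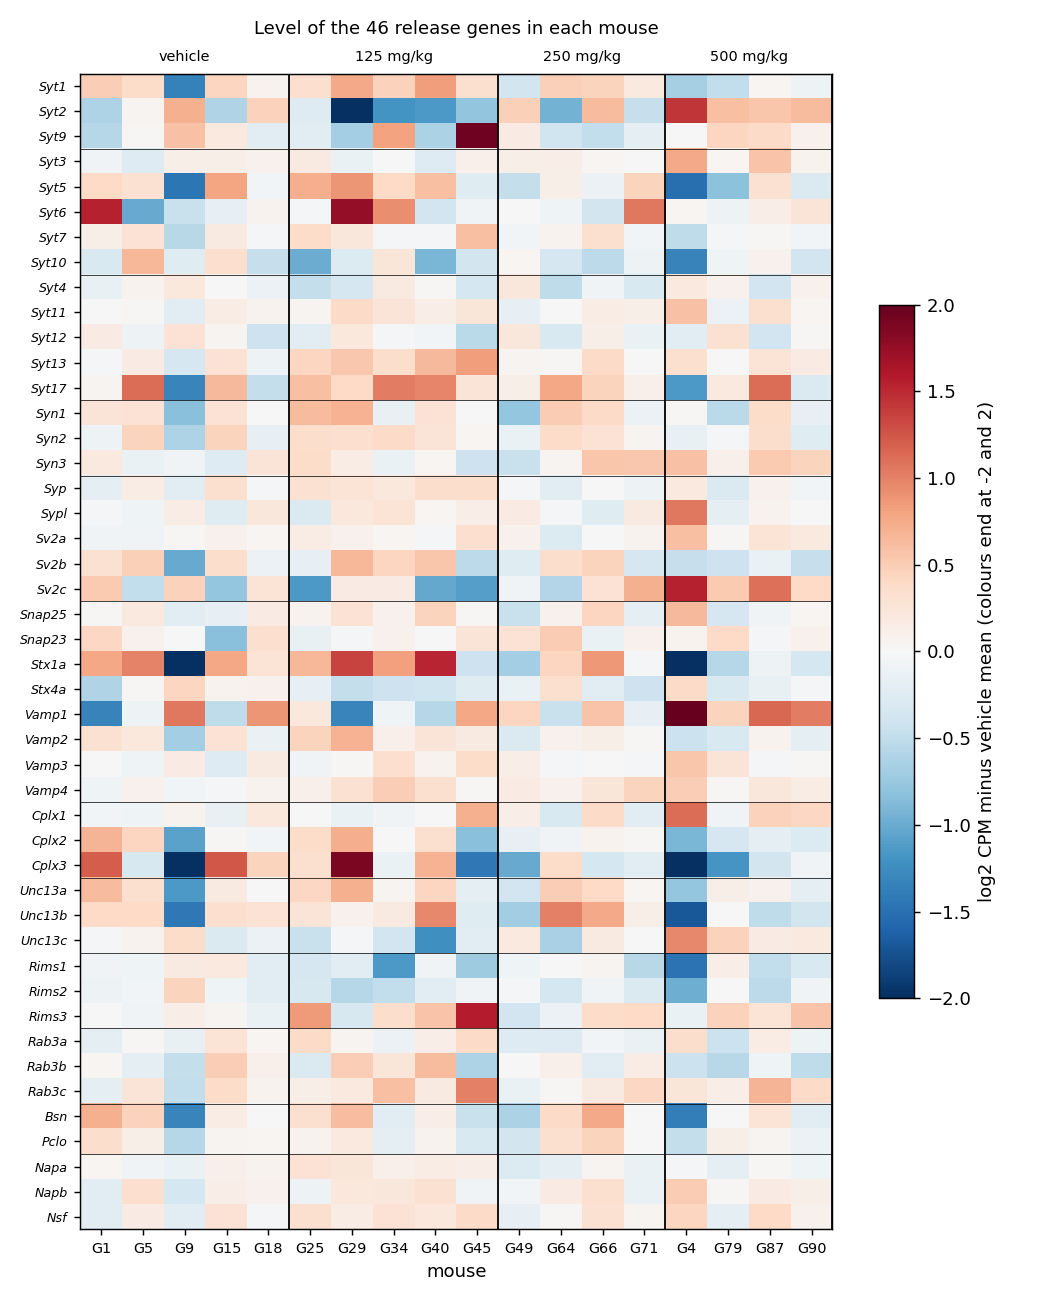
Level of each of the 46 release genes (rows, grouped by role and separated by lines) in each of the 18 mice (columns, by dose), as log2 CPM minus the mean log2 CPM of the 5 vehicle mice, with colours ending at -2 and 2. Mice G4 (500 mg/kg) and G9 (vehicle) both show Stx1a and Cplx3 low and Syt2 and Vamp1 high.

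To ask whether levels followed dose, counts were regressed on dose with sex as a covariate, and a slope is the log2 change per 500 mg/kg/day. None of the 46 members reached an adjusted p under 0.05 by edgeR's quasi-likelihood test, and the smallest was 0.173, against 0.290% of the 15863 genes called (46 genes, none of them a member). DESeq2 also called 0 of 46, with a smallest adjusted p of 0.0774, and called 1.77% of the 13704 genes it tested. An unadjusted p under 0.05 was reached by 11 of 46 members, 8 with a positive and 3 with a negative slope, and by 13.2% of all genes. Slopes were negative for 26 of 46 members and for 48.8% of all genes. The members' median slope was -0.067, against 0.0085 for all genes, and their range ran between -1.51 for Cplx3 and 1.18 for Vamp1. The median was 0.042 without the 500 mg/kg mice. Without G4, 1 member had an unadjusted p under 0.05, without G9 there were 18, and without both there were 12.

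**Figure D2:**
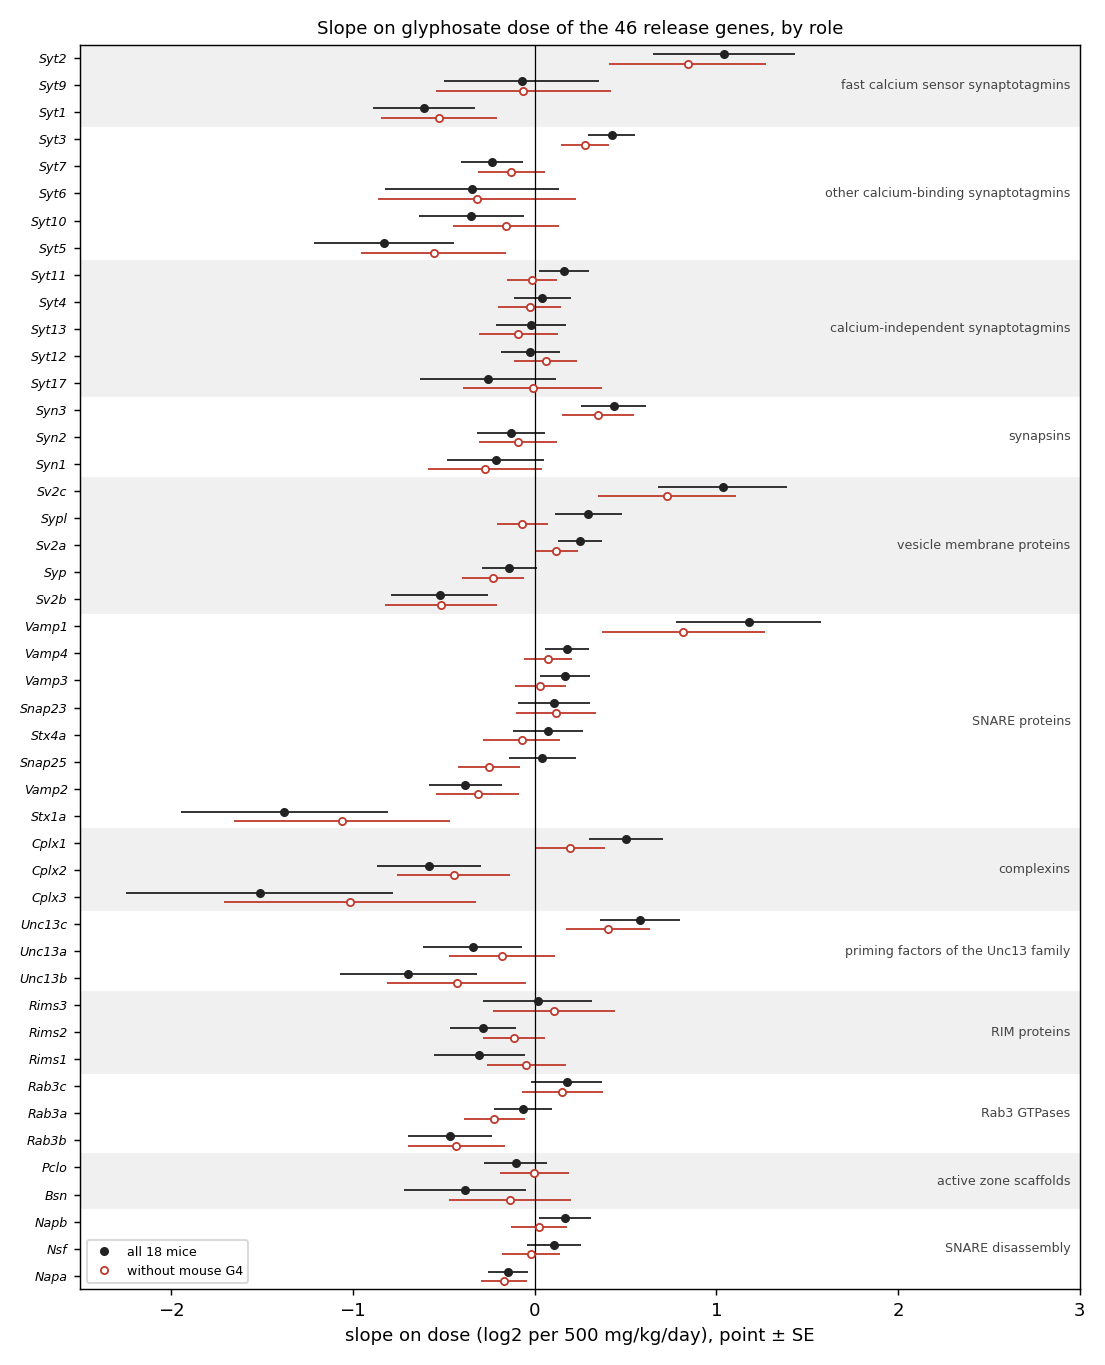
Slope on dose (x axis, log2 per 500 mg/kg/day, point ± SE) of the 46 release genes by role, for all 18 mice (black, filled) and without mouse G4 (red, open). The black points run between -1.51 (Cplx3) and 1.18 (Vamp1), and most of the largest move towards 0 without G4.

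Among the fast calcium sensors, the pair Syt1 and Syt2 had slopes of opposite sign. Syt1 (Entrez Gene 20979, chr10:108497650-109010980), the main trigger of synchronous release in forebrain, had 1567, 1446, 436, 1498 and 1169 CPM in the vehicle mice, 1411, 1897, 1535, 1985 and 1395 CPM in the 125 mg/kg mice, 864, 1549, 1527 and 1281 CPM in the 250 mg/kg mice and 704, 795, 1144 and 1043 CPM in the 500 mg/kg mice (mice in order of number: vehicle G1, G5, G9, G15, G18; 125 mg/kg G25, G29, G34, G40, G45; 250 mg/kg G49, G64, G66, G71; 500 mg/kg G4, G79, G87, G90). The lowest value belonged to vehicle mouse G9, and the 500 mg/kg mice lay inside the vehicle range. Its slope was -0.61 ± 0.28 (SE, n = 18; edgeR adjusted p = 0.363), -0.52 ± 0.32 without G4 and -0.70 without G4 and G9. Syt2 (Entrez Gene 20980, chr1:134646534-134753149), the fast sensor of brainstem and spinal terminals, had 64.9, 104, 162, 65.6 and 137 CPM in the vehicle mice, 83.4, 24.6, 43.4, 44.9 and 57.6 CPM in the 125 mg/kg mice, 139, 51.7, 154 and 72.7 CPM in the 250 mg/kg mice and 269, 151, 146 and 155 CPM in the 500 mg/kg mice. The 500 mg/kg mice all exceeded 4 of the vehicle mice, G4 was far above the rest, and the groups overlapped through vehicle mouse G9. The slope of Syt2 was 1.04 ± 0.39 (SE; edgeR adjusted p = 0.26), and 0.84 ± 0.43 without G4. The other fast sensor, Syt9, found in limbic and striatal neurons, ranged over 17.7 to 110.2 CPM with a slope of -0.070 ± 0.43, and its highest value was in the 125 mg/kg mouse G45.

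The group means of Syt2 were lowest at 125 mg/kg. Syt2 averaged 50.8 ± 21.7 CPM in the 125 mg/kg mice and 107 ± 43.2 CPM in the vehicle mice (SD, n = 5 each), a log2 difference of -0.96 ± 0.34 (SE; edgeR adjusted p = 0.347), while at 500 mg/kg the log2 difference was 0.80 ± 0.35 (edgeR adjusted p = 0.395).

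The remaining calcium-binding synaptotagmins held the member with the smallest p. Syt3 (Entrez Gene 20981, chr7:44382773-44400030), a high-affinity calcium sensor that in rodents also acts in postsynaptic receptor uptake, had 36.5, 32.1, 41.3, 41.7 and 40.8 CPM in the vehicle mice, 43.3, 34.9, 38.2, 31.9 and 41.1 CPM in the 125 mg/kg mice, 41.7, 41.8, 39.5 and 38.4 CPM in the 250 mg/kg mice and 64.9, 39.2, 57.0 and 40.1 CPM in the 500 mg/kg mice. The 500 mg/kg mice G4 and G87 were above all other mice, whereas G79 and G90 lay within the vehicle range, so the groups overlapped. The slope was 0.42 ± 0.13 (SE, n = 18; edgeR adjusted p = 0.173; DESeq2 adjusted p = 0.0774). It became 0.28 ± 0.13 without G4, and without G79 it was 0.55 with an edgeR adjusted p of 0.0488, the sole case in which leaving out 1 mouse brought a member past the threshold. Syt5 had a slope of -0.83 ± 0.39 (adjusted p = 0.369 by edgeR) and the range 17.3 to 91.5 CPM, with its lowest values in G4 and G9. Syt7, the slow sensor for asynchronous release and facilitation, had a slope of -0.24 ± 0.17, Syt6 -0.34 ± 0.48 and Syt10 -0.35 ± 0.29. Without G4, Syt7 had -0.13 and Syt10 -0.16.

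Synaptotagmins that do not bind calcium had slopes within 2 standard errors of 0. Syt4, of dense-core vesicles, had 0.042 ± 0.16, Syt11 0.16 ± 0.14, Syt12 -0.023 ± 0.16 and Syt13 -0.020 ± 0.19 log2 per 500 mg/kg/day (SE). Without G4 the sign changed for Syt4 (-0.026), Syt11 (-0.013) and Syt12 (0.061), and Syt13 had -0.09. Syt17 (Entrez Gene 110058, chr7:118380713-118448583), linked to Golgi trafficking and neurite growth, was among the 2 members with the smallest p for sex and had 10.3, 21.6, 3.99, 15.6 and 7.13 CPM in the vehicle mice, 15.2, 13.2, 20.2, 19.7 and 11.9 CPM in the 125 mg/kg mice, 10.9, 17.0, 13.5 and 10.7 CPM in the 250 mg/kg mice and 4.50, 11.4, 21.5 and 8.15 CPM in the 500 mg/kg mice. G9 and G4 were its lowest mice and the dose groups overlapped, with a slope of -0.25 ± 0.37, and -0.011 without G4. Syt13, named after its values were seen, had 199, 226, 160.1, 247 and 189 CPM in the vehicle mice, 271, 294, 258, 317 and 362 CPM in the 125 mg/kg mice, 209, 206, 264 and 204 CPM in the 250 mg/kg mice and 252, 200.3, 243 and 226 CPM in the 500 mg/kg mice. The 125 mg/kg mice were all above the vehicle mice. The share of all genes separated in this way at 125 mg/kg was not counted, so whether this is unusual cannot be told. The log2 difference of the 125 mg/kg from the vehicle mice was 0.54 ± 0.13 (SE; edgeR adjusted p = 0.307; DESeq2 adjusted p = 0.0367), and Syt13 was the 1 member that DESeq2 called in this comparison.

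Genes of the vesicle itself had slopes of either sign. The synapsins Syn1 and Syn2, which tether vesicles to actin, had slopes of -0.21 ± 0.27 and -0.13 ± 0.19, and Syn3, the form prominent in early development, 0.43 ± 0.18 (edgeR adjusted p = 0.304). Synaptophysin, Syp, had -0.14 ± 0.15, and -0.23 without G4, and its relative Sypl 0.30 ± 0.18, which became -0.067 ± 0.14 without G4. Of the SV2 transporter-like proteins, Sv2a, the binding site of the antiepileptic levetiracetam, had 0.25 ± 0.12, and 0.12 without G4, and Sv2b had -0.52 ± 0.27. Sv2c (Entrez Gene 75209, chr13:95959443-96132577), most abundant in basal ganglia and brainstem, had 77.9, 38.5, 74.0, 31.7 and 64.9 CPM in the vehicle mice, 24.3, 60.8, 60.7, 26.5 and 25.04 CPM in the 125 mg/kg mice, 51.5, 36.0, 66.2 and 88.5 CPM in the 250 mg/kg mice and 157, 77.8, 115 and 71.2 CPM in the 500 mg/kg mice. G4 and G87 were highest, and the 500 mg/kg mice G79 and G90 fell within the vehicle range. The slope of Sv2c was 1.04 ± 0.35 (edgeR adjusted p = 0.216), and 0.73 ± 0.38 without G4.

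Among SNARE genes, Vamp1 and Vamp2 had slopes of opposite sign. Vamp1 (Entrez Gene 22317, chr6:125215581-125222306), the synaptobrevin of brainstem and motor terminals, had 119, 280.2, 625, 211 and 555 CPM in the vehicle mice, 348, 121, 284, 202 and 513 CPM in the 125 mg/kg mice, 405, 221, 445 and 268 CPM in the 250 mg/kg mice and 1227, 408, 664 and 613 CPM in the 500 mg/kg mice. G4 had the highest value, the lowest 500 mg/kg mouse was G79, and G9 and G18 of the vehicle mice lay among the 500 mg/kg mice. The slope was 1.18 ± 0.40 (SE; edgeR adjusted p = 0.212), 0.82 ± 0.45 without G4 and 1.01 without G4 and G9. Vamp2 (Entrez Gene 22318, chr11:69088528-69092381), the main synaptobrevin of forebrain synapses, had 1013, 947, 513, 1002 and 742 CPM in the vehicle mice, 1107, 1325, 879, 981 and 929 CPM in the 125 mg/kg mice, 669, 866, 885 and 833 CPM in the 250 mg/kg mice and 607, 659.9, 858 and 722 CPM in the 500 mg/kg mice. Its lowest values were in G9 and G4, and the groups overlapped, with a slope of -0.38 ± 0.20 (edgeR adjusted p = 0.43). Stx1a had the most negative SNARE slope at -1.38 ± 0.57 (edgeR adjusted p = 0.309), -1.06 ± 0.60 without G4 and -1.30 without G4 and G9. Snap25, the neuronal t-SNARE, had 0.043 ± 0.19, and -0.25 ± 0.17 without G4. The SNAREs of general membrane traffic had slopes within 2 standard errors of 0, with Snap23 0.11 ± 0.20, Stx4a 0.074 ± 0.19, Vamp3 0.17 ± 0.14 and Vamp4 0.18 ± 0.12. Without G4 these were 0.12 for Snap23, -0.071 for Stx4a, 0.032 for Vamp3 and 0.075 for Vamp4.

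**Figure D3:**
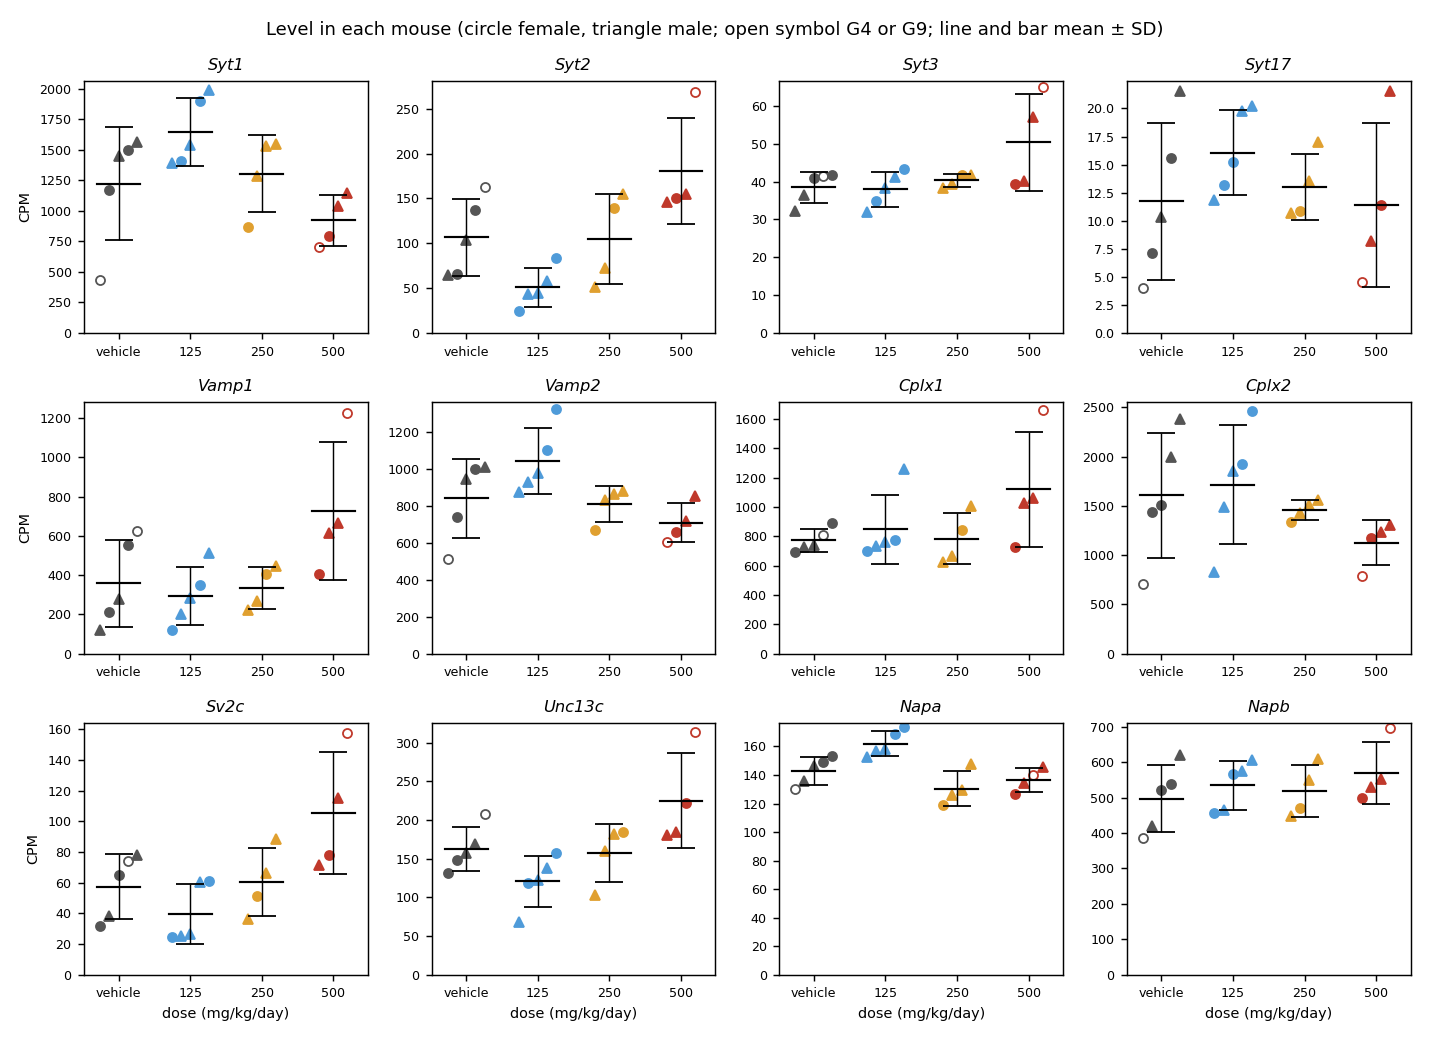
CPM (y axis) of 12 release genes in each mouse by dose (x axis, mg/kg/day), circles for females, triangles for males, open symbols for G4 and G9, lines and bars for group mean ± SD. Syt2, Vamp1 and Sv2c are highest in mouse G4 at 500 mg/kg, Syt1 and Vamp2 are lowest in vehicle mouse G9, and each gene's 500 mg/kg and vehicle values overlap.

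Complexins, which clamp and then assist fusion, also had slopes of either sign. Cplx1 (Entrez Gene 12889, chr5:108518554-108550027) had 740.0, 726, 811, 693 and 891 CPM in the vehicle mice, 777, 703, 732, 761 and 1261 CPM in the 125 mg/kg mice, 843, 623, 1007 and 665 CPM in the 250 mg/kg mice and 1663, 731, 1061 and 1025 CPM in the 500 mg/kg mice. G4 was highest, G79 lay within the vehicle range and the 125 mg/kg mouse G45 stood above its group. The slope was 0.50 ± 0.21 (SE; edgeR adjusted p = 0.304), and 0.19 ± 0.19 without G4. Cplx2 (Entrez Gene 12890, chr13:54301964-54383923) had 2379.9, 1998, 707, 1514 and 1435 CPM in the vehicle mice, 1923, 2467, 1489, 1856 and 834 CPM in the 125 mg/kg mice, 1333, 1423, 1560.0 and 1514 CPM in the 250 mg/kg mice and 793, 1175, 1307 and 1232 CPM in the 500 mg/kg mice. Its lowest values were in G9 and G4 and the groups overlapped, with a slope of -0.58 ± 0.29 (edgeR adjusted p = 0.391). Cplx3 had the lowest slope of all, -1.51 ± 0.74, with an edgeR adjusted p of 0.385.

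Among priming factors, Unc13a, the main primer of glutamatergic vesicles, had a slope of -0.34 ± 0.27 and Unc13b, which serves a subset of synapses, -0.70 ± 0.38. Without G4 the slopes were -0.18 for Unc13a and -0.43 for Unc13b. Unc13c (Entrez Gene 208898, chr9:73479422-74008155), the form of cerebellar granule cells, had 157, 168, 208, 131 and 148 CPM in the vehicle mice, 118, 157, 123, 68.3 and 138 CPM in the 125 mg/kg mice, 184, 103, 181 and 160.3 CPM in the 250 mg/kg mice and 313, 222, 181 and 185 CPM in the 500 mg/kg mice. G4 was the highest mouse, and G87 and G90 lay within the vehicle range. The 10 cerebellar granule cell markers summed to 334 CPM in G4 and to 1143 to 3560 CPM in the vehicle mice. How far granule cells set the level of Unc13c was not tested. The slope of Unc13c was 0.58 ± 0.22 (edgeR adjusted p = 0.266), and without the 500 mg/kg mice it was -0.026. The active-zone RIM proteins had slopes of -0.30 ± 0.25 for Rims1, -0.28 ± 0.18 for Rims2 and 0.018 ± 0.30 for Rims3. Leaving out G4 gave -0.045 for Rims1, -0.11 for Rims2 and 0.11 for Rims3. The vesicle GTPases had -0.064 ± 0.16 for Rab3a, -0.46 ± 0.23 for Rab3b and 0.18 ± 0.19 for Rab3c, and the giant scaffolds bassoon (Bsn) and piccolo (Pclo) -0.38 ± 0.34 and -0.10 ± 0.17. Leaving out G4 gave -0.22 for Rab3a, -0.14 for Bsn and -0.0014 for Pclo.

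The genes of SNARE disassembly differed little between mice. Napa (Entrez Gene 108124, chr7:16098202-16117982), alpha-SNAP, had 147, 136, 130.1, 154 and 149 CPM in the vehicle mice, 174, 169, 152, 158 and 157 CPM in the 125 mg/kg mice, 119, 126, 148 and 129.7 CPM in the 250 mg/kg mice and 140.3, 126, 145 and 134 CPM in the 500 mg/kg mice. The 125 mg/kg mice were highest as a group, and the 500 mg/kg and vehicle mice overlapped. Napb (Entrez Gene 17957, chr2:148693985-148732425), the brain form beta-SNAP, had 421, 619.8, 385, 539.8 and 521 CPM in the vehicle mice, 458, 568, 575, 607 and 466 CPM in the 125 mg/kg mice, 471, 549, 609 and 447 CPM in the 250 mg/kg mice and 696, 498, 552 and 529.5 CPM in the 500 mg/kg mice. Napb was highest in G4 and lowest in G9, with the groups otherwise mixed. The slopes were -0.15 ± 0.11 for Napa, 0.17 ± 0.14 for Napb and 0.11 ± 0.15 for Nsf, with edgeR adjusted p of 0.605, 0.656 and 0.805. Without G4 the slopes were 0.025 for Napb and -0.019 for Nsf.

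To find patterns that are not a straight line, any difference among the 4 dose groups was tested. edgeR called 0 of 46 members (smallest adjusted p = 0.130) and 0.0441% of all genes, with 11 members and 15% of all genes at an unadjusted p under 0.05. That count of members was 6 without G4, 5 without G25 and 7 without either G40 or G90. DESeq2 called 3 of 46 members and 3.40% of all genes. These were Syt2 (DESeq2 adjusted p = 0.00307), Syt13 (DESeq2 adjusted p = 0.013) and Napa (DESeq2 adjusted p = 0.0416), and in each the mean of the 125 mg/kg mice was the lowest (Syt2) or the highest (Syt13, Napa) of the 4 groups.

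Each dose was also set against the 5 vehicle mice, which the 3 comparisons share. At 125 mg/kg, edgeR called 0 of 46 members and 0% of all genes, 5 members and 11.2% of all genes had an unadjusted p under 0.05, and DESeq2 called 1 member and 0.233% of all genes. Differences were positive for 34 of 46 members, with a median of 0.15, against -0.0015 for all genes. The 5 members were Syt13, Rims3 (0.64), Syp (0.29) and Vamp4 (0.25), with positive log2 differences, and Syt2, with a negative one. There were 3 such members without vehicle mouse G5 or G9 and 10 without G15. At 250 mg/kg, edgeR called 0 members and 0% of all genes, 0 members and 3.76% of all genes had an unadjusted p under 0.05, and DESeq2 called 0 members and 0% of all genes. At 500 mg/kg, edgeR called 0 members and 0.0189% of all genes, 7 members and 11.6% of all genes had an unadjusted p under 0.05, and DESeq2 called 0 members and 1.05% of all genes. Those 7 were Syt3 (0.41), Sv2a (0.29), Cplx1 (0.54), Sv2c (0.88), Vamp1 (1.10), Syt2 (0.80) and Unc13c (0.47), all positive. Without G4 there were 0, without G15 there were 3 and without G5 there were 4, whereas without G45, G79 and G9 there were 11, 14 and 16. In no member were all 500 mg/kg mice above all vehicle mice (2.32% of all genes) or all below them (0.933% of all genes).

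Sex was examined in the same fits. The slope on dose differed between males and females past the threshold in 0 of 46 members by edgeR (0% of all genes) and in 0 of 46 by DESeq2 (0% of all genes), and 0 members and 1.65% of all genes had an unadjusted p under 0.05. The largest estimate was that of Cplx3, whose slope was 2.14 ± 1.43 higher in males (SE). Between males and females, edgeR called 0 of 46 members and 0.0441% of all genes, DESeq2 called 0 members and 0.164% of all genes, and 3 members and 10.1% of all genes had an unadjusted p under 0.05. These were Syt17 (log2 difference, males minus females, 0.61 ± 0.27), Syt1 (0.44 ± 0.20) and Unc13b (0.58 ± 0.26), with edgeR adjusted p of 0.475, 0.480 and 0.481. Their lowest mice, G4 and G9, are both female, and without these mice 0 members had an unadjusted p under 0.05. As single mice were left out, that count was 0 without G4 or G40, 1 without G9, G18 or G49, 5 without G1 or G25 and 8 without G29.

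Paired forms can be compared within a mouse, where library size cancels. The log2 ratio of Syt2 to Syt1 reads averaged -3.49 ± 1.30 in the vehicle mice, -5.11 ± 0.84 in the 125 mg/kg mice, -3.75 ± 0.99 in the 250 mg/kg mice and -2.38 ± 0.70 in the 500 mg/kg mice (SD, n = 5, 5, 4 and 4). That of Vamp1 to Vamp2 averaged -1.44 ± 1.37, -1.98 ± 0.97, -1.33 ± 0.57 and -0.071 ± 0.75 in the same order of dose. For Cplx1 to Cplx2 the means were -0.95 ± 0.74, -0.97 ± 0.92, -0.92 ± 0.31 and -0.046 ± 0.77. The 500 mg/kg means were the highest of the 4 groups for these pairs, and the 500 mg/kg and vehicle ranges overlapped in each. For Napa to Napb the means were -1.78 ± 0.27, -1.71 ± 0.23, -1.99 ± 0.15 and -2.05 ± 0.18, lowest at 500 mg/kg. The ratios are of reads, not corrected for gene length, and serve only to compare mice.

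The Syt2 to Syt1 and Vamp1 to Vamp2 ratios went together over the 18 mice, with Pearson's r of 0.89 and Spearman's rho of 0.85, given as a description. The r was 0.89 after centring each dose group and 0.84 without G4 and G9. Vamp1 to Vamp2 and Cplx1 to Cplx2 had an r of 0.88, and 0.81 without G4 and G9. Syt2 to Syt1 and Cplx1 to Cplx2 had an r of 0.70, and 0.50 without G4 and G9. Napa to Napb did not go with the other pairs, with an r of -0.25 with Syt2 to Syt1, -0.31 with Vamp1 to Vamp2 and -0.19 with Cplx1 to Cplx2. All ratios of a mouse come from a single library and a single piece of tissue.

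**Figure D4:**
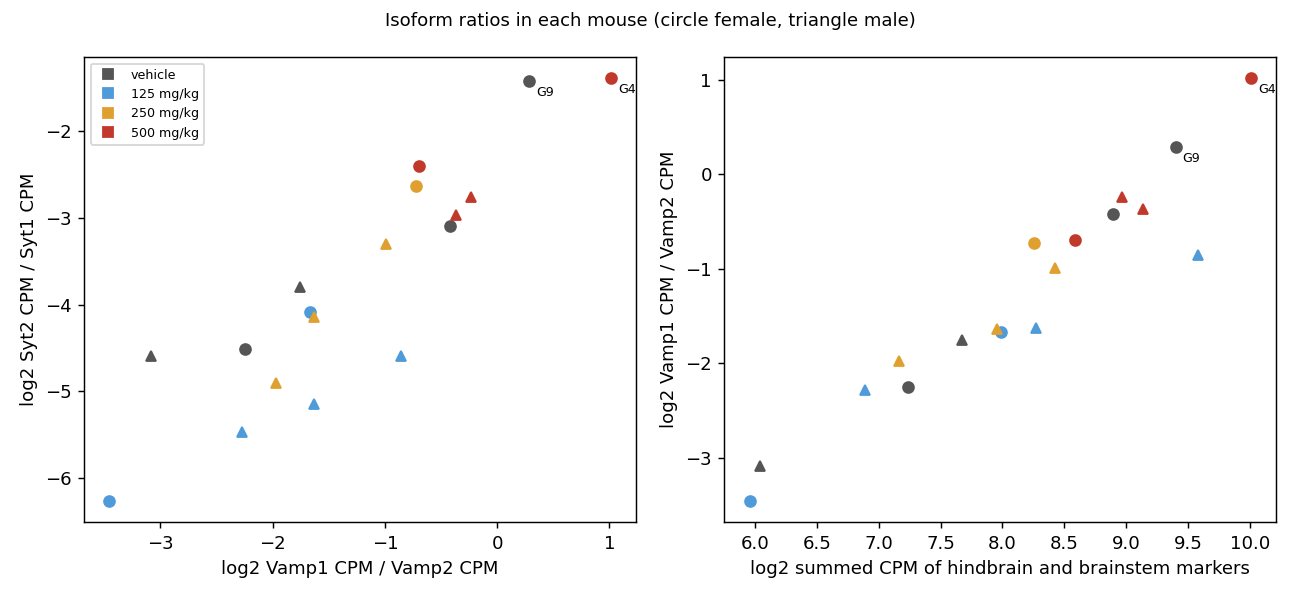
Left, log2 ratio of Syt2 to Syt1 against log2 ratio of Vamp1 to Vamp2 in each of the 18 mice (r = 0.89). Right, log2 ratio of Vamp1 to Vamp2 against the log2 summed CPM of 14 hindbrain and brainstem neuron markers (r = 0.95), with colours for dose, circles for females and triangles for males, and vehicle mouse G9 beside 500 mg/kg mouse G4 at the upper right of both.

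Forebrain and hindbrain markers went with the Syt2 to Syt1, Vamp1 to Vamp2 and Cplx1 to Cplx2 ratios, whereas Napa to Napb had an r of -0.19 with the hindbrain and 0.21 with the forebrain sum. The sum of the 14 hindbrain and brainstem markers ran over 65.6 to 676 CPM in the vehicle mice, 62.1 to 768 CPM in the 125 mg/kg mice, 143 to 345 CPM in the 250 mg/kg mice and 385 to 1033 CPM in the 500 mg/kg mice. Its largest parts were Nefh and Slc17a6, with vehicle means of 113 and 112 CPM, and no other marker in it averaged over 15.2 CPM. Slc17a6 is also among the thalamus markers. Mouse G45, at 768 CPM, had Hoxa4, Hoxc4 and Hoxb6 at 0 counts and a thalamus marker sum of 2190 CPM, the highest of all mice. The hindbrain and brainstem sum correlated with Vamp1 to Vamp2 at r = 0.95 (rho = 0.94, n = 18), and r was 0.94 without G4 and G9. Which of its genes carried this was not tested. With Syt2 to Syt1 its r was 0.77 (0.67 without G4 and G9), and with Cplx1 to Cplx2 it was 0.90. The 125 mg/kg mouse G29, with the lowest ratio, had 7 of these markers at 0 counts, among them Slc6a5 and Hox genes, whereas G4, G9, G18, G66, G71 and G79 had none at 0. The sum of the 15 forebrain excitatory markers ran over 1108 to 5865 CPM in the vehicle mice, 2609 to 6881 CPM in the 125 mg/kg mice, 2489 to 5231 CPM in the 250 mg/kg mice and 835 to 3337 CPM in the 500 mg/kg mice. Its highest r values among members were Stx1a 0.96, Unc13a 0.94, Bsn 0.92, Syt5 0.92, Cplx2 0.90, Cplx3 0.90 and Syt1 0.89. Some members lay near 0, such as Snap25 at 0.11, Nsf at 0.10, Rab3a at 0.015 and Rims2 at -0.014. The lowest were Vamp1 at -0.78, Unc13c at -0.70, Vamp3 at -0.69 and Syt2 at -0.68. With Vamp1 to Vamp2, r was -0.86 (n = 18 each). Without G4 and G9, r was 0.93 for Stx1a, 0.89 for Unc13a, 0.85 for Cplx2 and 0.83 for Syt1. It was 0.80 for Syt5, 0.78 for Bsn and 0.76 for Cplx3. For Snap25, Nsf, Rab3a and Rims2 it was 0.67, 0.24, 0.31 and -0.35. For Vamp1, Unc13c, Vamp3 and Syt2 it was -0.69, -0.51, -0.55 and -0.54. Of 15 forebrain markers 14 had a negative slope on dose (median -1.05), and of 13 tested hindbrain markers 10 had a positive slope (median 0.90), with 0 called by edgeR in either list. The 14 oligodendrocyte markers all had positive slopes (median 0.76, 12 with an unadjusted p under 0.05, 0 called by edgeR and 4 by DESeq2), and summed to 4204 to 7520 CPM in the vehicle mice, 4112 to 9940 CPM in the 125 mg/kg mice, 4693 to 7298 CPM in the 250 mg/kg mice and 6082 to 17168 CPM in the 500 mg/kg mice, with none at 0 in any mouse. The oligodendrocyte sum of 17168 CPM was that of G4, and G79, G87 and G90 had 6082, 10566 and 8721 CPM. Slopes were negative for 10 of 10 markers of striatal projection neurons (median -1.11), 9 of 10 of cerebellar granule cells (-0.54), 8 of 8 of choroid plexus (-0.81), 8 of 11 of GABAergic neurons (-0.37) and 6 of 9 of thalamus (-0.11). They were positive for 8 of 10 astrocyte markers (median 0.18), 6 of 10 endothelial markers (0.061), 5 of 10 microglial markers (-0.0010) and 10 of 12 pan-neuronal markers (0.10), of which 2 are members, and edgeR called 0 in each of these lists. Among the GABAergic markers the 3 positive slopes included Slc32a1 (0.45) and Gad2 (0.49). The GABAergic sum ran over 1150 to 1266 CPM in the vehicle mice and 1278 to 1485 CPM in the 500 mg/kg mice. In the 125 and 250 mg/kg mice it ran over 1064 to 1320 and 1000 to 1571 CPM. The thalamus sum had a median of 293 CPM in the vehicle mice and 556 CPM in the 500 mg/kg mice. The part of these cell and region markers in the members' values was not tested.

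Other genes of the vesicle cycle were taken from 3 lists that share no gene with the 46. Of 38 tested genes of docking, priming and the active zone, 14 had a positive and 24 a negative slope (median -0.047), and edgeR and DESeq2 each called 0. The smallest p belonged to Rab3d, a Rab3 form of secretory granules, at -0.63 ± 0.25 (SE; edgeR adjusted p = 0.300). Of 26 genes of vesicle proteins and transmitter loading, 11 were positive and 15 negative (median -0.063, 0 called by edgeR and 0 by DESeq2). Slc18a2, the vesicular monoamine transporter, had a slope of 1.96 ± 0.48 (edgeR adjusted p = 0.0866), Synpr, a synaptophysin relative, -0.98 ± 0.31 (0.181) and Slc17a7, the forebrain glutamate transporter, -1.02 ± 0.41 (0.297). Of 28 endocytosis genes, 17 were positive and 11 negative (median 0.028), with 0 called by edgeR and 1 by DESeq2. Itsn1, the endocytic scaffold intersectin, had the smallest edgeR p of the list, with a slope of 0.57 ± 0.13 (edgeR adjusted p = 0.0580), and Dnm3, a dynamin, had 0.46 ± 0.16 (0.235).

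Close relatives can share reads. In the annotated transcripts, 3 of 1035 pairs of members shared a stretch of 50 bases and 1, Cplx2 with Rab3c, a stretch of 100 bases, and no pair within the synaptotagmin, Vamp, complexin, Unc13, Rim or Rab3 families did. Exons of 15 members overlapped exons of another gene, in all but Bsn on the opposite strand, most in Syt12 (17.2% of its exon bases), Syp (16.8%), Syt4 (14.5%) and Syn3 (14.1%, shared with Timp3). Whether reads were counted by strand was not given in the sources used here, so for these genes reads from the partner cannot be told apart.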

How the data were processed

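The authors isolated RNA with the RNeasy Kit, made stranded total RNA libraries after ribosomal RNA depletion and sequenced paired reads of 100 bases. The deposited values are whole-number counts per Entrez gene, made by the authors with STAR 2.7.5b on GRCm38 and featureCounts, and MultiQC 1.12 and DESeq2 1.34.0 are also named in the submitters' processing notes. The annotation version and the strand and multimapping settings were not given in the sources used here. Counts carry no molecular identifiers.

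Groups followed the labels. Genes were kept with filterByExpr at a minimum count of 10, scaled by TMM and tested with edgeR 4.0.16 (quasi-likelihood, R 4.3.3), with sex as a covariate and Benjamini-Hochberg adjustment over 15863 genes at 0.05. DESeq2 1.42.0 and limma-voom (limma 3.58.1) were alternatives, with other scaling, filters, dose scales and subsets of mice, and each mouse left out in turn. The common biological coefficient of variation was 25.8%. No 2 libraries were duplicates: over 32 pairs within groups, chi-square per degree of freedom was 9.67 to 83.4. The dose model was checked on simulated counts, drawn independently for each gene with the same dispersion. That check does not cover mice such as G4 and G9, or variation shared between genes.

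The 46 genes, the lists and the tests were chosen with earlier results of these data known. Values in every mouse were given for members past the threshold, the 6 with the smallest p on dose, the 2 with the smallest p for sex and 4 pairs of related forms, and other genes were named from lists by the smallest p on dose, of which some are not reported here. Exon lengths came from GENCODE M21 and promoters from RefSeq, both on GRCm38. Leaving out G4 and G9 together, and a block on the second number in the titles, were chosen after seeing the data.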

Additional observations from a re-analysis of the deposited data

Results flagged for a closer look

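In each dose group, the highest and the lowest mouse of every member was compared with its nearest neighbour. Of 184 combinations of member and group, 10 had a gap past the limit for a group of that size, and chance gives about 1 in 20. Mouse G4, at 500 mg/kg, had 268.7 CPM of Syt2 (next 154.7 CPM) and 101.1 CPM of Sypl (next 51.4 CPM). Vehicle mouse G9 had 7.09 CPM of Unc13b, the lowest of its group (next 23.4 CPM), and 235.3 CPM of Rims2, the highest (next 164.9 CPM). Syt6 stood at 75.2 CPM in vehicle mouse G1 (next 27.1 CPM) and at 53.9 CPM in the 250 mg/kg mouse G71 (next 25.6 CPM). Cplx1 stood at 1261 CPM in the 125 mg/kg mouse G45 (next 777 CPM), and Sv2b at 415 CPM in the 500 mg/kg mouse G87 (next 344 CPM). In the 250 mg/kg group, Syt13 reached 264 CPM in G66 (next 209 CPM) and Vamp3 19.98 CPM in G49 (next 18.1 CPM).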

How the results depend on the processing

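No member passed the dose regression under any alternative except when G79 was left out, where Syt3 did, so the count of members past the threshold ran over 0 to 1 as each mouse was left out. At an unadjusted p under 0.05, where 11 members stood in the dose regression, there were 7 with limma-voom, 0 without the 500 mg/kg mice and 2 in females only, and 1 to 18 as each mouse was left out (1 without G4, 18 without G9). Genes past the threshold in the whole table, 46 by edgeR, numbered 29 with no filter, 242 with DESeq2, 27 with dose as a rank, 0 without the 500 mg/kg mice, 0 in males only, 0 in females only, 2 without G4 and G9, and 2 to 127 as each mouse was left out (2 to 28 without G4, G87, G5, G15, G34, G1, G25 or G40, and 81, 101 and 127 without G45, G9 and G79). DESeq2 called 3 members for any difference among groups and 1 member at 125 mg/kg, where edgeR called 0. Among the 12 members with values in every mouse by rule, slopes changed sign for Unc13c (-0.026), Syt17 (0.11) and Syt1 (0.039) without the 500 mg/kg mice, for Napb (-0.032) without G4 and G9 and for Cplx2 (0.10) with the replicate block below. Of all 46 members, 13 changed sign when some single mouse was left out, 7 of them without G4: Syt4, Syt11, Syt12, Sypl, Snap25, Stx4a and Nsf. None of these slopes was past the threshold. The members' median slope was -0.11 to -0.03 as each mouse was left out and 0.042 without the 500 mg/kg mice. The causes were not tested. The second number in the titles is shared across doses by 8 mice. Over the 7 pairs of mice of different dose that share one, deviations from the dose means correlated at -0.43 to 0.17 (median -0.0018). The median was -0.012 over the 114 pairs of different dose and different number. With 7 pairs drawn from 8 mice, whether the number pairs the mice cannot be told. A fit with the number as a replicate block, added after seeing the data, left 10 residual degrees of freedom and a median standard error of 0.448. Under the block 0 members and 0 genes passed the dose regression, 0 members had an unadjusted p under 0.05, the median slope was -0.13 and 6 members changed sign. In the same fits, 0 members passed at 125 mg/kg, at 500 mg/kg or between the sexes. Only the 8 mice whose number is on 2 doses inform the slope under the block. These fits therefore cannot tell whether the slopes hold. With 4 or 5 mice a group, the median standard error per member slope was 0.199, and slopes of about that size were not detectable. Larger ones, such as 0.42 ± 0.13 for Syt3 and 1.18 ± 0.40 for Vamp1 (SE), were not called either.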
